A study of Neurospora crassa with 12 samples.

Results

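In the filamentous fungus Neurospora crassa, 55 of 9730 counted genes had at most 0.5 times their wild-type (WT) mRNA level, with no overlap between libraries, in a strain that lacks the heterochromatic region LGIIK9het25. Levels are CPM, the count of a gene per 1000000 counts in all genes of that library. The genes were chosen by 3 values: a WT mean of at least 2 CPM, a ΔLGIIK9het25 mean of at most 0.5 times the WT mean, and every ΔLGIIK9het25 library below every WT library. Because these values chose the genes, the difference between ΔLGIIK9het25 and WT is given here as a description, without a test. What the choice did not use is the level of the same genes in a second mutant, Δdim-5.

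Constitutive heterochromatin of Neurospora crassa lies over AT-rich, repeat-derived DNA and carries trimethylated lysine 9 of histone H3 (H3K9me3). The histone methyltransferase DIM-5 places this mark, HP1 binds it, and the DNA methyltransferase DIM-2 acts downstream of HP1. Loss of DIM-5 therefore removes the mark from the whole genome, while a deletion such as ΔLGIIK9het25 removes 1 marked region of linkage group (LG) II together with its DNA.

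The study measured polyadenylated mRNA in 3 strains with 4 libraries each. ΔLGIIK9het25 is strain NKL2 (mat A; ΔLGIIK9het25::hph, the region replaced by a hygromycin resistance gene), Δdim-5 is strain N3944 (mat x; Δdim-5::bar+, the gene replaced by a herbicide resistance gene), and WT is strain N150 (mat A). Mycelia came from shaken cultures in Vogel's minimal medium (1.5% sucrose, 32 °C, 16 h), and directional libraries were sequenced as single reads. Each genotype was thus represented by 1 strain, and no label states that the libraries of a strain came from separate cultures, so p-values measure the spread between these libraries, which may be technical.

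Counts in genes summed to 8518301 to 16039760 in ΔLGIIK9het25, 10920478 to 23925695 in Δdim-5 and 7164944 to 12423603 in WT libraries. Reads outside annotated genes made up 31.8% of the entries in ΔLGIIK9het25 replicate 2 and 36.8% in WT replicate 2, against 3.62% to 18.5% in the other 10 libraries. The deleted gene dim-5 averaged 7.38 ± 1.17 CPM in ΔLGIIK9het25, 0.0335 ± 0.0410 CPM in Δdim-5 and 7.43 ± 1.12 CPM in WT (SD, n = 4 each). The labels do not tie LGIIK9het25 to a counted gene, so its loss was not checked here. Markers of vegetative hyphae were abundant in every library, at a summed 7357 to 14461 CPM in ΔLGIIK9het25, 6230 to 8110 CPM in Δdim-5 and 9505 to 13272 CPM in WT.

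The 55 genes together took up 0.165% to 0.215% of all counts in ΔLGIIK9het25, 0.240% to 0.30% in Δdim-5 and 0.369% to 0.629% in WT libraries. Their ratio of ΔLGIIK9het25 mean to WT mean ran from 0.182 to 0.497 with a median of 0.419. The ratio was under 0.25 for 6 genes, between 0.25 and 0.4 for 13 genes and between 0.4 and 0.5 for 36 genes, so most sat close to the upper bound of the choice. WT means ran from 2.23 to 685 CPM, with 16 genes under 10 CPM, 28 genes between 10 and 100 CPM and 11 genes at 100 CPM or more. In bulk mycelium, a lower level can reflect less RNA per cell or fewer cells of a kind, and these cannot be told apart.

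**Figure D1:**
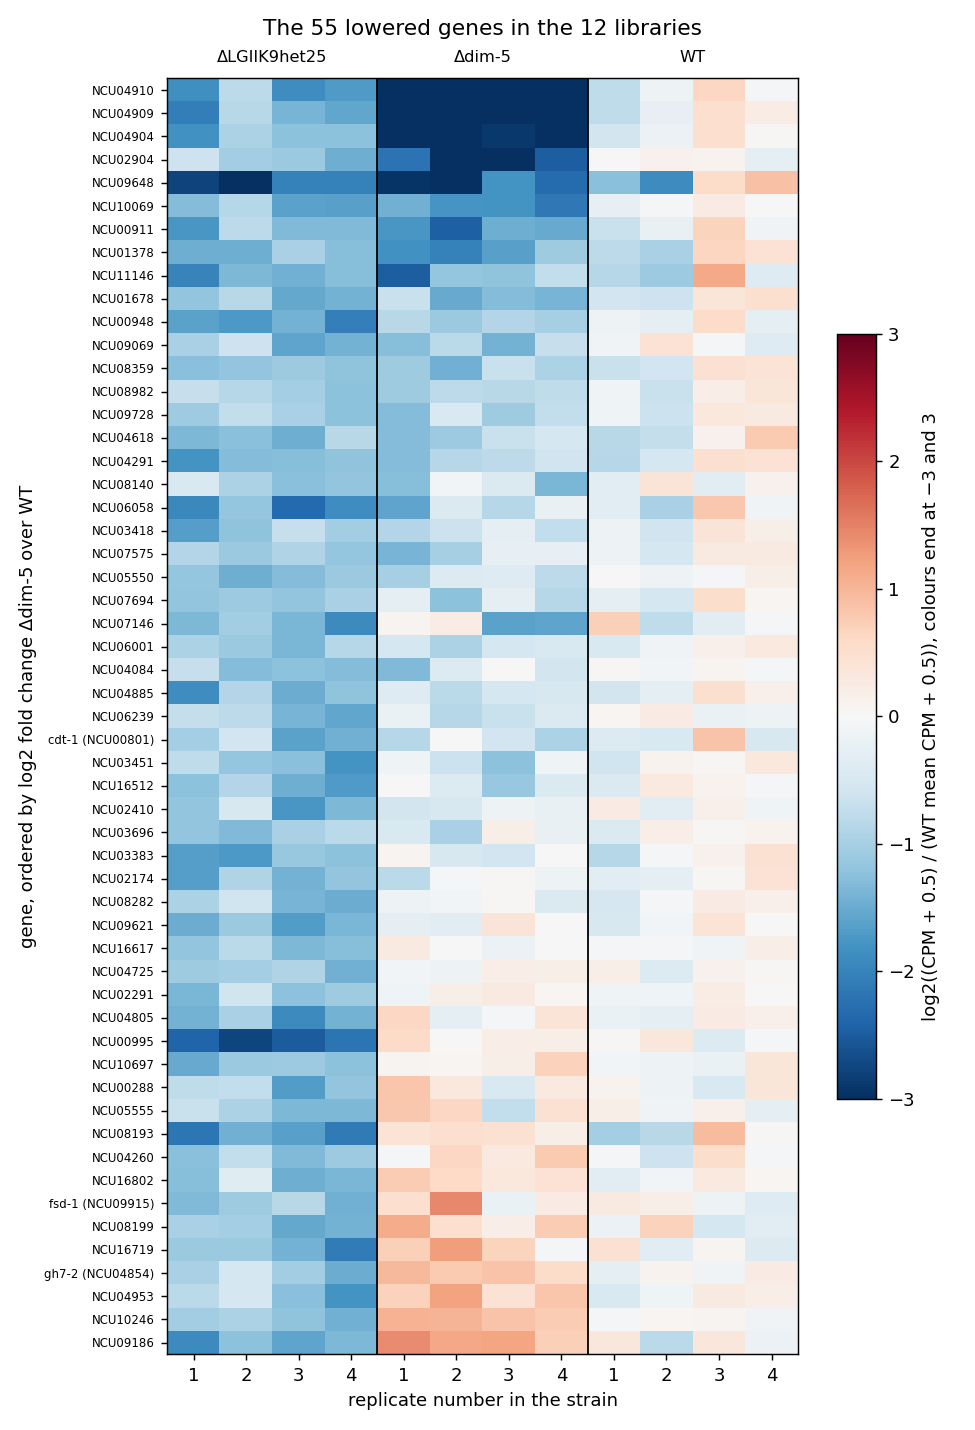
Level of each of the 55 genes (rows) in each of the 12 libraries (columns) relative to the WT mean of that gene, as log2 of CPM plus 0.5 over the WT mean plus 0.5, with rows ordered by the fitted difference between Δdim-5 and WT. The ΔLGIIK9het25 columns are low in every row by choice, whereas the Δdim-5 columns run from far below WT for NCU04910 to above WT for NCU09186.

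The lowest ratio belonged to NCU00995 on LG I, which had 108, 85.2, 101 and 124 CPM in ΔLGIIK9het25 libraries, 858, 577, 656 and 652 CPM in Δdim-5 and 584, 731, 429.5 and 552 CPM in WT libraries. The 4 ΔLGIIK9het25 libraries were all low and lay close together, and the Δdim-5 and WT libraries overlapped. Like most of the 55 genes, NCU00995 has no gene symbol in the RefSeq annotation, and no function is given to it here. Its mean was 104 ± 16.3 CPM in ΔLGIIK9het25 and 574 ± 124 CPM in WT (SD, n = 4 each), a ratio of 0.182.

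NCU09648 on LG IV had a similar ratio of 0.186 but a much wider WT spread. It had 86.5, 63.6, 145 and 145 CPM in ΔLGIIK9het25 libraries, 77.0, 67.1, 171 and 119.7 CPM in Δdim-5 and 247, 159, 865 and 1099 CPM in WT libraries. WT replicates 3 and 4 were high and replicate 2 was near the top of the ΔLGIIK9het25 range.

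The other 4 genes with a ratio under 0.25 were expressed at a few CPM. NCU00948 on LG I averaged 0.742 ± 0.228 CPM in ΔLGIIK9het25 and 3.48 ± 1.23 CPM in WT, and NCU09186 on LG III averaged 0.497 ± 0.202 CPM in ΔLGIIK9het25 and 2.32 ± 0.944 CPM in WT. NCU06058 on LG VII averaged 1.08 ± 0.563 CPM in ΔLGIIK9het25 and 4.85 ± 2.83 CPM in WT. NCU07146 on LG V averaged 0.545 ± 0.244 CPM in ΔLGIIK9het25 and 2.23 ± 1.24 CPM in WT (SD, n = 4 each). These means rest on 38, 24, 49 and 26 reads over the 4 ΔLGIIK9het25 libraries, in the same order of genes, so their ratios carry more counting error than that of NCU00995 with 5313 reads.

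The next ratios included 2 genes with a high WT replicate 3. NCU08193 on LG III had 30.3, 50.8, 44.3 and 31.5 CPM in ΔLGIIK9het25, against 68.2, 77.6, 267 and 141 CPM in WT libraries. NCU11146 on LG IV had 3.74, 6.22, 5.80 and 6.49 CPM in ΔLGIIK9het25, against 8.98, 7.54, 37.1 and 12.7 CPM in WT libraries. For both genes the lowest WT libraries lay much nearer to the ΔLGIIK9het25 libraries than to WT replicate 3. NCU16719 on LG IV and NCU03383 on LG II showed less uneven WT levels, with 0.830 to 2.11 CPM in ΔLGIIK9het25 against 3.79 to 7.34 CPM in WT for NCU16719, and 3.76 to 5.99 CPM in ΔLGIIK9het25 against 7.34 to 19.1 CPM in WT for NCU03383.

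The most abundant of the genes in WT was NCU00911 on LG I, with 203, 397, 275 and 274 CPM in ΔLGIIK9het25 libraries, 205, 125, 249 and 240.3 CPM in Δdim-5 and 432, 582, 1085 and 638 CPM in WT libraries. NCU10069 on LG I had 253, 344, 206 and 201 CPM in ΔLGIIK9het25 libraries, 228, 182, 179 and 141 CPM in Δdim-5 and 522, 607, 735 and 630.1 CPM in WT libraries. In both genes every library of either mutant lay below every WT library. NCU04805 on LG VI averaged 65.0 ± 17.0 CPM in ΔLGIIK9het25, 198 ± 56.5 CPM in Δdim-5 and 172 ± 30.6 CPM in WT, and NCU03696 on LG V averaged 75.1 ± 12.01 CPM in ΔLGIIK9het25, 127 ± 40.8 CPM in Δdim-5 and 157 ± 28.5 CPM in WT (SD, n = 4 each).

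Only 3 of the 55 genes carry a symbol in the RefSeq annotation, against 1118 of all 9730 counted genes. The first, fsd-1 (NCU09915, also ndt80) on LG IV, encodes a regulator of female sexual development related to Ndt80, which activates meiotic genes in Saccharomyces cerevisiae. It had 17.7, 21.6, 25.4 and 16.5 CPM in ΔLGIIK9het25 libraries, 64.2, 125, 39.5 and 54.4 CPM in Δdim-5 and 54.8, 51.2, 41.1 and 34.8 CPM in WT libraries, so that Δdim-5 replicate 2 stood highest. In the RefSeq annotation fsd-1 overlaps NCU09917, which averaged 0.725 ± 0.312 CPM in ΔLGIIK9het25, 2.74 ± 1.47 CPM in Δdim-5 and 0.613 ± 0.203 CPM in WT, and counting without strand does not separate reads of overlapping genes on opposite strands.

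The second, cdt-1 (NCU00801) on LG I, encodes a cellodextrin transporter that brings short glucose chains from cellulose breakdown into the cell. It had 10.0, 13.7, 6.48 and 7.32 CPM in ΔLGIIK9het25 libraries, 11.3, 20.7, 13.8 and 10.4 CPM in Δdim-5 and 15.5, 14.9, 37.7 and 14.7 CPM in WT libraries. WT replicate 3 was far above every other WT library, and without it the gene no longer met the choice. The third, gh7-2 (NCU04854) on LG IV, encodes a glycoside hydrolase of family 7, a family that includes fungal cellulases, and had 2.28, 3.29, 2.12 and 1.43 CPM in ΔLGIIK9het25 libraries, 10.1, 8.80, 9.33 and 7.48 CPM in Δdim-5 and 3.99, 5.30, 4.51 and 5.92 CPM in WT libraries. Its 3 strains did not overlap, with Δdim-5 highest and ΔLGIIK9het25 lowest.

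**Figure D2:**
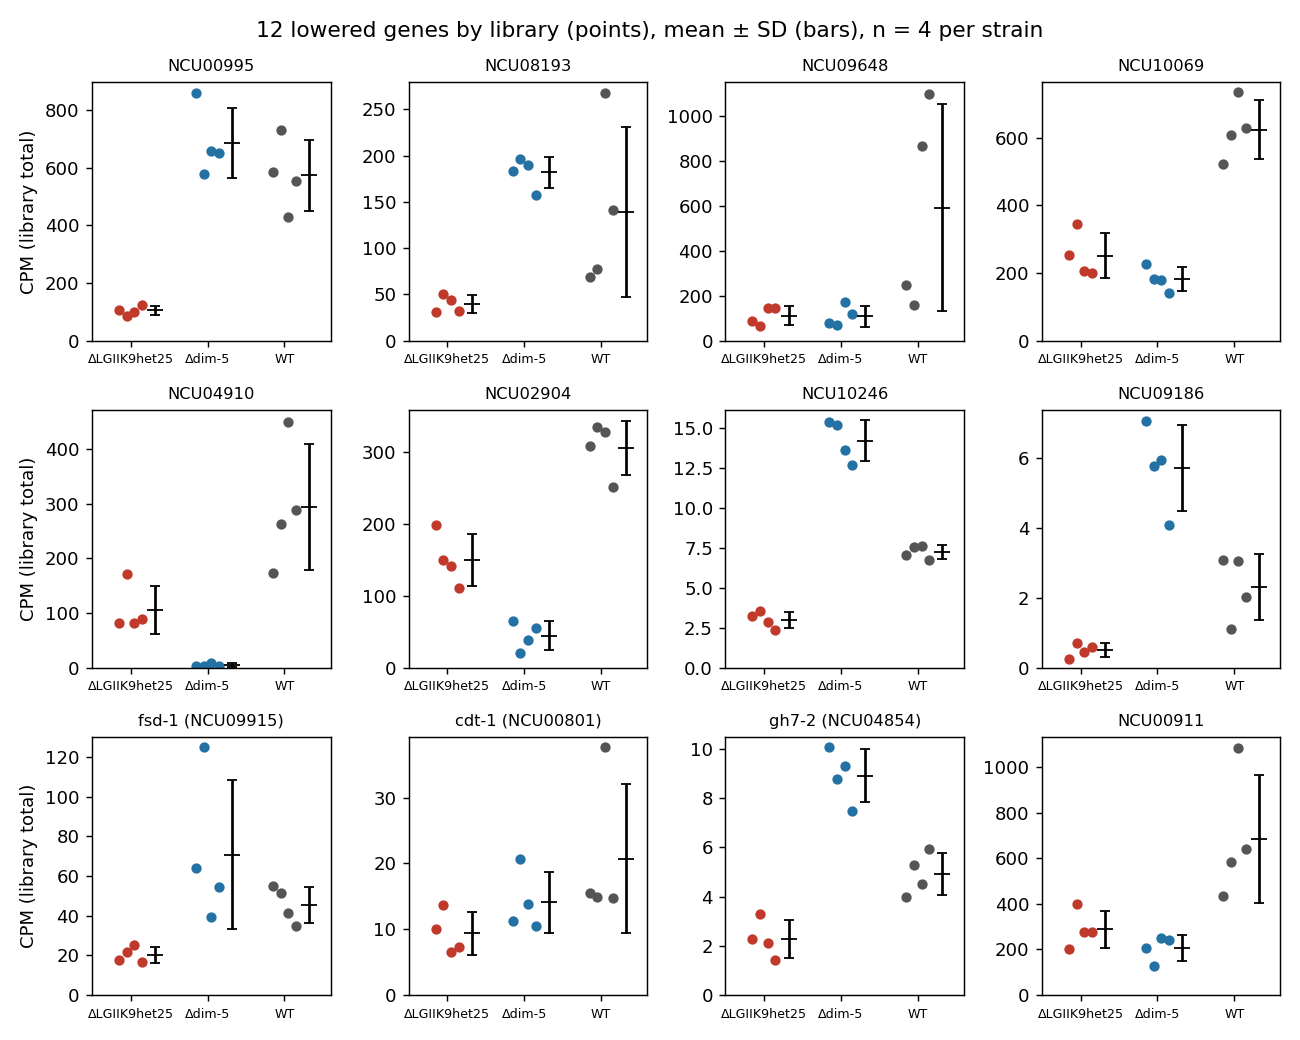
CPM of 12 of the 55 genes in each library (points) with the mean of each strain (line), 1 panel a gene with its own axis. The ΔLGIIK9het25 points lie below all WT points in every panel by choice, and the Δdim-5 points range from near 0 for NCU04910 to above all WT points for NCU10246, NCU09186 and gh7-2.

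At the bound of the choice, the 3 genes just inside were NCU09728, NCU02904 and NCU08982, with ratios of 0.489, 0.490 and 0.497. NCU02904 averaged 150.2 ± 36.3 CPM in ΔLGIIK9het25 and 306 ± 37.5 CPM in WT. NCU09728 averaged 7.92 ± 1.21 CPM in ΔLGIIK9het25 and 16.2 ± 4.69 CPM in WT, and NCU08982 4.45 ± 0.773 CPM in ΔLGIIK9het25 and 8.95 ± 2.72 CPM in WT. The 3 non-overlapping genes just outside were NCU06043, NCU04906 and NCU15833. NCU06043 averaged 182 ± 41.3 CPM in ΔLGIIK9het25 and 365 ± 112 CPM in WT. NCU04906 averaged 13.3 ± 3.68 CPM in ΔLGIIK9het25 and 26.6 ± 5.43 CPM in WT, and NCU15833 2.23 ± 1.00 CPM in ΔLGIIK9het25 and 4.43 ± 0.674 CPM in WT (SD, n = 4 each). Of 7531 genes with a WT mean of at least 2 CPM, 157 had a ratio of at most 0.5, and for 102 of these some ΔLGIIK9het25 library reached a WT library. All libraries lay apart in this direction for 382 genes, or 5.07% of the 7531, of which 327 had a ratio above 0.5.

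Which genes met the choice depended on single libraries. With 1 library left out, the number of genes was 88 without ΔLGIIK9het25 replicate 1, 156 without replicate 2, 58 without replicate 3 and 57 without replicate 4 of that strain. It was 87 without WT replicate 1, 101 without replicate 2, 57 without replicate 3 and 64 without replicate 4. With both replicate 2 libraries left out, an alternative chosen after seeing the data because of their reads outside genes, 254 genes met it. Leaving out a library also makes it easier for the rest not to overlap, and 31 of the 55 genes met the choice in all 8 runs with 1 library left out.

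**Figure D3:**
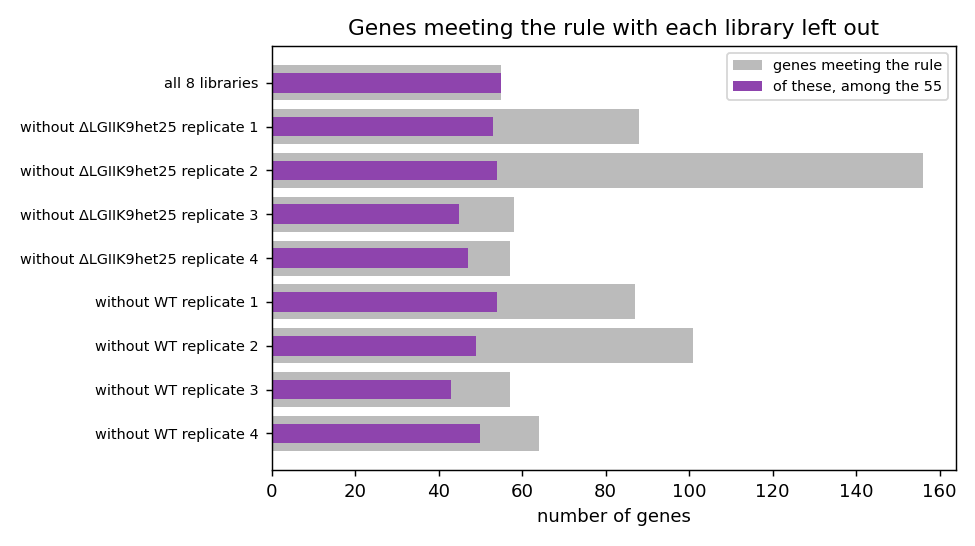
Number of genes that met the choice with all libraries and with each ΔLGIIK9het25 or WT library left out, divided into genes of the 55 and further genes. The number ran from 57 without ΔLGIIK9het25 replicate 4 or WT replicate 3 to 156 without ΔLGIIK9het25 replicate 2.

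Several named genes left the set in these runs. NCU07146 did so without WT replicate 1, NCU11146 and NCU00911 without WT replicate 3, gh7-2 without ΔLGIIK9het25 replicate 4, and cdt-1 without ΔLGIIK9het25 replicate 3 or WT replicate 3. NCU03696 left it without replicate 2 of either strain, NCU02904 without ΔLGIIK9het25 replicate 4 or WT replicates 2 or 3, NCU09728 without ΔLGIIK9het25 replicate 4 or WT replicates 3 or 4, and NCU08982 without replicates 3 or 4 of either strain. ΔLGIIK9het25 replicate 2 was the highest library of its strain for 28 of the 55 genes (50.9%), against 38.8% of the other 7476 genes with a WT mean of at least 2 CPM. WT replicate 3 was the highest of its strain for 27 of them (49.1%), against 46.0% of the others.

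The spread between WT libraries was also described. The median ratio of the highest to the lowest WT library was 1.90 for the 55 genes and 1.54 for the others, and it reached 2 for 23 genes and 3 for 7 genes. WT replicates 3 and 4 both exceeded replicates 1 and 2 for 30 of the 55 genes (54.5%), against 30.1% of the others, a pattern chosen after its values were seen. The median coefficient of variation was 24.8% in ΔLGIIK9het25, 24.8% in Δdim-5 and 27.5% in WT for the 55 genes, against 17.3% in ΔLGIIK9het25, 21.6% in Δdim-5 and 19.1% in WT for the others. The part of these spreads in the choice of the genes was not tested.

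In edgeR's quasi-likelihood test over 8496 genes, 44 of the 55 genes were called lower in ΔLGIIK9het25 than in WT at an adjusted p under 0.05, where 1.24% of all tested genes were. The choice used these same libraries, so nothing is read from that count.

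The level of the same genes was then described in Δdim-5, which lacks H3K9me3 as a whole. The ratio of Δdim-5 mean to WT mean had a median of 0.685 over the 55 genes and ran from 0.017 to 2.47, against a median of 0.931 for the other 7476 genes. These CPM ratios, and the overlaps of libraries below, use library totals without TMM scaling, which set Δdim-5 slightly lower. Over all tested genes, the median log2 fold change of Δdim-5 against WT was -0.064 with library totals and 0.0095 with TMM. The Δdim-5 mean lay below the ΔLGIIK9het25 mean for 8 genes, between the ΔLGIIK9het25 and WT means for 29 genes and above the WT mean for 18 genes. The WT libraries of this comparison are also those that chose the genes, and the choice required them to be high. A lower level in Δdim-5 than in WT is therefore not independent of the choice, and the shares of all genes given beside the counts below do not carry that condition.

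Every Δdim-5 library lay below every WT library for 14 of the 55 genes (25.5%), against 12% of the 7531 genes. Every Δdim-5 library lay above every WT library for 5 genes (9.09%), against 6.75% of the 7531 genes, and the strains overlapped for the other 36. In the edgeR test, 14 of the 55 genes were lower in Δdim-5 than in WT (25.5%), where 7.53% of all 8496 tested genes were. It called 3 genes higher (5.45%), where 9% of all tested genes were, and 38 were not called. The median log2 fold change was -0.46 over the 55 genes and 0.01 over all tested genes.

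**Figure D4:**
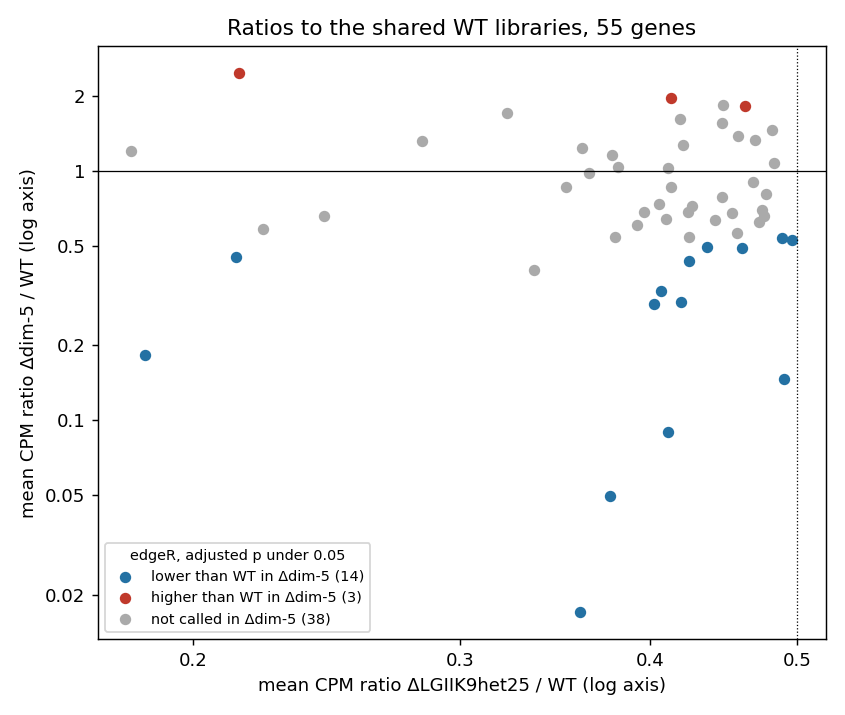
Ratio of ΔLGIIK9het25 mean to WT mean (horizontal axis) and of Δdim-5 mean to WT mean (vertical axis) for the 55 genes, both on log axes and both over the same WT libraries, coloured by the edgeR call of Δdim-5 against WT. All points lie left of 0.5 by choice, while the vertical axis spans 0.017 to 2.47.

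The 14 genes lower in Δdim-5 were led by 3 genes of 1 stretch of LG IV. NCU04910 had 81.8, 171, 81.0 and 89.4 CPM in ΔLGIIK9het25 libraries, 3.11, 3.80, 9.38 and 3.68 CPM in Δdim-5 and 173, 264, 450.4 and 288 CPM in WT libraries. Its log2 fold change of Δdim-5 against WT was -5.77 (SE 0.446, edgeR adjusted p = 1.64e-06). The 3 strains did not overlap and Δdim-5 was lowest throughout, while ΔLGIIK9het25 replicate 2, the highest of its strain, lay just below the lowest WT library. The gene next to it, NCU04909, had 23.7, 56.9, 38.2 and 34.4 CPM in ΔLGIIK9het25 libraries, 5.31, 4.64, 6.56 and 3.68 CPM in Δdim-5 and 59.6, 85.1, 143 and 119 CPM in WT libraries, with a log2 fold change of -4.25 (SE 0.336, edgeR adjusted p = 2.05e-06). NCU04904 had 37.2, 68.9, 56.0 and 56.7 CPM in ΔLGIIK9het25 libraries, 10.1, 8.23, 17.5 and 11.7 CPM in Δdim-5 and 89.9, 117.9, 189 and 135 CPM in WT libraries, with a log2 fold change of -3.40 (SE 0.282, edgeR adjusted p = 3.2e-06). In both genes the 3 strains stood apart in the same order.

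NCU02904 on LG I had 198, 149, 142 and 111 CPM in ΔLGIIK9het25 libraries, 65.5, 20.6, 38.4 and 54.8 CPM in Δdim-5 and 309, 335, 328 and 252 CPM in WT libraries. Its log2 fold change of Δdim-5 against WT was -2.70 (SE 0.308, edgeR adjusted p = 6.08e-05). NCU02904 overlaps NCU02905 in the annotation, and NCU02905 averaged 2478 ± 230.0 CPM in ΔLGIIK9het25, 2463 ± 304 CPM in Δdim-5 and 2431 ± 437 CPM in WT (SD, n = 4 each). The 3 strains did not overlap for NCU02904, again with Δdim-5 lowest.

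A further 4 genes were lower in Δdim-5 than in WT in every alternative run with the same threshold. NCU09648 had a log2 fold change of -2.37 (SE 0.552, edgeR adjusted p = 0.0104) and NCU10069 of -1.69 (SE 0.207, edgeR adjusted p = 0.000112). For NCU00911 it was -1.66 (SE 0.283, edgeR adjusted p = 0.0015), and for NCU01378 on LG V it was -1.53 (SE 0.325, edgeR adjusted p = 0.00611). NCU01378 had 33.0, 33.0, 46.6 and 38.0 CPM in ΔLGIIK9het25 libraries, 26.0, 22.5, 29.4 and 43.7 CPM in Δdim-5 and 53.1, 47.0, 144 and 126 CPM in WT libraries, so that WT replicates 3 and 4 were far above replicates 1 and 2. With NCU04910, NCU04909, NCU04904 and NCU02904, these made 8 of the 14 calls that held in every such alternative. The alternatives reuse WT libraries that the choice required to be high, so holding in them is not independent of the choice.

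The remaining 6 calls, NCU00948, NCU01678, NCU08359, NCU08982, NCU09069 and NCU09728, were lost in at least 1 alternative. NCU00948 had a log2 fold change of -1.07 (SE 0.332, edgeR adjusted p = 0.0429), and its adjusted p ran from 0.016 to 0.148 over the alternatives. It was lost without ΔLGIIK9het25 replicate 1 (adjusted p = 0.0583 with edgeR), without any 1 Δdim-5 library (0.0536 to 0.1) and without any 1 WT library (0.0563 to 0.148), as well as in the fit of the 2 strains alone (0.0595). For NCU09728 it was -0.81 (SE 0.241, edgeR adjusted p = 0.0343), and the call was lost without Δdim-5 replicates 1, 3 or 4 or WT replicates 3 or 4 (0.0656 to 0.102) and in the fit of the 2 strains alone (0.0681). For NCU08982 it was -0.84 (SE 0.249, edgeR adjusted p = 0.0344), and the call was lost without any 1 Δdim-5 library or WT replicates 1, 3 or 4 (0.0512 to 0.111) and in the fit of the 2 strains alone (0.0626). NCU01678 averaged 17.4 ± 3.99 CPM in ΔLGIIK9het25, 17.7 ± 5.23 CPM in Δdim-5 and 40.9 ± 16.1 CPM in WT, and NCU08359 and NCU09069 averaged 24.9 ± 5.41 and 24.3 ± 6.01 CPM in Δdim-5, against 50.3 ± 20.5 and 49.6 ± 12.6 CPM in WT (SD, n = 4 each). The call of NCU01678 was lost without Δdim-5 replicates 2 or 4 or WT replicate 4, that of NCU08359 without these or WT replicate 3, and that of NCU09069 without WT replicate 2, with edgeR adjusted p of at most 0.061, 0.0736 and 0.0506 over the alternatives, in this order of genes.

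The 3 genes higher in Δdim-5 than in WT were NCU10246, NCU09186 and gh7-2. NCU10246 on LG II had 3.25, 3.52, 2.87 and 2.34 CPM in ΔLGIIK9het25 libraries, 15.4, 15.2, 13.6 and 12.7 CPM in Δdim-5 and 7.07, 7.54, 7.65 and 6.74 CPM in WT libraries, with a log2 fold change of Δdim-5 against WT of 1.05 (SE 0.193, edgeR adjusted p = 0.00244). The 3 strains stood apart, and this call held in every alternative at the same threshold. NCU09186 had 0.244, 0.704, 0.436 and 0.604 CPM in ΔLGIIK9het25 libraries, 7.05, 5.77, 5.95 and 4.10 CPM in Δdim-5 and 3.08, 1.12, 3.06 and 2.01 CPM in WT libraries, with a log2 fold change of 1.38 (SE 0.361, edgeR adjusted p = 0.0193). Without WT replicate 4 its edgeR adjusted p was 0.0533.

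For gh7-2 the log2 fold change was 0.93 (SE 0.271, edgeR adjusted p = 0.0321), close to the threshold. Its edgeR adjusted p was 0.0746 without Δdim-5 replicate 1, 0.0607 without replicate 2 and 0.0596 without replicate 3. It was 0.085 without WT replicate 1 and 0.0841 without WT replicate 3. The other 2 genes whose Δdim-5 libraries all exceeded WT, NCU04953 and NCU16802 on LG IV, were not called over all libraries but passed in the fit of the 2 strains alone (edgeR adjusted p = 0.0444 and 0.0439), with means of 9.55 ± 2.34 CPM in Δdim-5 against 5.19 ± 1.25 CPM in WT for NCU04953, and 119.6 ± 16.2 CPM in Δdim-5 against 82.3 ± 15.2 CPM in WT for NCU16802.

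Among the 38 genes not called, the strains Δdim-5 and WT could not be told apart by this test, which does not show that they had equal levels. NCU00995 had a log2 fold change of 0.32 (SE 0.213, edgeR adjusted p = 0.34) and NCU08193 of 0.49 (SE 0.334, edgeR adjusted p = 0.349). NCU08193 passed the threshold without WT replicate 3 (edgeR adjusted p = 0.0322), the library that was highest for it. For fsd-1 the log2 fold change was 0.71 (SE 0.305, edgeR adjusted p = 0.134), and it passed without Δdim-5 replicate 3 (edgeR adjusted p = 0.0479). For cdt-1 it was -0.46 (SE 0.335, edgeR adjusted p = 0.387). Of the 38 genes, 11 passed the threshold in at least 1 alternative.

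Δdim-5 was also set against ΔLGIIK9het25 directly, and here the ΔLGIIK9het25 libraries are those that chose the genes as low. A higher level in Δdim-5 is thus favoured by the choice itself, so nothing is read from the counts of higher genes, and their differences are given as a description without a test. Every Δdim-5 library lay above every ΔLGIIK9het25 library for 24 of the 55 genes (43.6%), against 7.09% of the 7531 genes, and every one lay below for 4 genes (7.27%), against 13.2%. In the edgeR test, 29 of the 55 genes were higher in Δdim-5 than in ΔLGIIK9het25 (52.7%), where 8.83% of all tested genes were, and 4 were lower (7.27%), where 7.92% were. The median log2 fold change was 0.88 over the 55 genes and 0.02 over all tested genes. Of the 29 higher genes, 25 were not called between Δdim-5 and WT, 3 were higher in Δdim-5 than in WT, and 1, NCU00948, was lower.

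The 29 included NCU00995, with a log2 fold change of Δdim-5 against ΔLGIIK9het25 of 2.80 (SE 0.228), and NCU08193 with 2.31 (SE 0.351). The largest belonged to NCU09186, at 3.62 (SE 0.413), followed among the genes higher than WT by NCU10246 at 2.34 (SE 0.203) and gh7-2 at 2.08 (SE 0.282). The regulator gene fsd-1 was higher in Δdim-5 by a log2 fold change of 1.89 (SE 0.314). NCU04805 and NCU16719 had values of 1.70 (SE 0.233) and 2.51 (SE 0.380).

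The 4 genes lower in Δdim-5 than in ΔLGIIK9het25 were NCU04910, NCU04909, NCU04904 and NCU02904, the same genes that led the fall against WT. They made up 7.27% of the 55 genes, near the 7.92% of all tested genes called lower, so their number is not read as a trait of the 55 genes. For these 4 genes a lower level runs against the direction that the choice favours. Their log2 fold changes were -4.29 (SE 0.418, edgeR adjusted p = 1.72e-05) for NCU04910 and -2.82 (SE 0.319, edgeR adjusted p = 5.82e-05) for NCU04909. For NCU04904 it was -2.11 (SE 0.270, edgeR adjusted p = 0.000176), and for NCU02904 it was -1.66 (SE 0.297, edgeR adjusted p = 0.00196). All 4 calls held in every alternative at the same threshold. For cdt-1 the log2 fold change was 0.69 (SE 0.339), and for NCU09648 it was 0.05 (SE 0.527), with a sign that turned in several alternatives. Another 13 genes, cdt-1 among them, were called in neither comparison with Δdim-5, and their ratios of Δdim-5 to WT means ran from 0.399 to 0.719.

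The 55 genes were spread over all 7 linkage groups. LG IV held 14 of them (25.5%), against 14.9% of the 7531 genes with a WT mean of at least 2 CPM. LG II, which carries the deleted region, held 7 (12.7%), against 10.6%, at places 10, 165, 166, 193, 226, 623 and 919 in its order of 1028 counted genes. From the second to the fifth of these lay 62 counted genes, 47 of them with a WT mean of at least 2 CPM. The position of LGIIK9het25 among these genes was not given in the labels and was not analysed here.

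The genes next to the 55 genes were examined for the same difference. The 81 neighbours with a WT mean of at least 2 CPM that were not among the 55 genes had a median ratio of ΔLGIIK9het25 to WT means of 0.939, against 0.989 for all 7476 other genes. Neighbours with a lower WT mean did not enter this median, and their ratios ran both ways. Only 2 pairs of the 55 genes were next to each other in the gene order. The pair on LG II was NCU16512, with 40.3, 51.5, 34.5 and 29.3 CPM in ΔLGIIK9het25 libraries, 96.8, 71.5, 43.1 and 70.8 CPM in Δdim-5 and 70.4, 117, 103 and 93.8 CPM in WT libraries. Its partner NCU03451 had 17.5, 13.3, 12.3 and 8.37 CPM in ΔLGIIK9het25 libraries, 27.6, 19.0, 12.6 and 27.6 CPM in Δdim-5 and 19.9, 32.2, 30.7 and 37.7 CPM in WT libraries. In both genes Δdim-5 overlapped both other strains. Next to NCU16512, NCU10684 averaged 1.97 ± 0.692 CPM in ΔLGIIK9het25, 6.96 ± 0.653 CPM in Δdim-5 and 0.343 ± 0.102 CPM in WT. Next to NCU03451, NCU03452 averaged 0.197 ± 0.153 CPM in ΔLGIIK9het25, 0.616 ± 0.371 CPM in Δdim-5 and 0.843 ± 0.539 CPM in WT (SD, n = 4 each).

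The pair on LG IV, NCU04909 and NCU04910, ended a run of 10 counted genes that began with NCU04904. Of its 9 tested genes, 8 were lower in Δdim-5 than in WT and 8 were lower in Δdim-5 than in ΔLGIIK9het25 in the edgeR test. The run was picked out because it holds the chosen genes, so these counts are a description. NCU04907, inside the run and not among the 55 genes, had 267, 342, 375 and 411 CPM in ΔLGIIK9het25 libraries, 0.916, 0.774, 0.252 and 0.627 CPM in Δdim-5 and 323, 575, 528 and 529 CPM in WT libraries. Its log2 fold change of Δdim-5 against WT was -9.56 (SE 0.381, edgeR adjusted p = 7.1e-09), a larger fall than that of any of the 55 genes. NCU04905 averaged 81.5 ± 24.6 CPM in ΔLGIIK9het25, 16.9 ± 4.38 CPM in Δdim-5 and 132 ± 47.2 CPM in WT, a ΔLGIIK9het25 to WT ratio of 0.615. NCU04908 averaged 28.5 ± 10.6 CPM in ΔLGIIK9het25, 8.41 ± 1.57 CPM in Δdim-5 and 24.6 ± 18.8 CPM in WT (SD, n = 4 each). Beyond the run, NCU04912 was higher in Δdim-5, at 27.5 ± 12.2 CPM against 9.61 ± 1.16 CPM in WT. Its log2 fold change was 1.60 (SE 0.324, edgeR adjusted p = 0.00466).

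**Figure D5:**
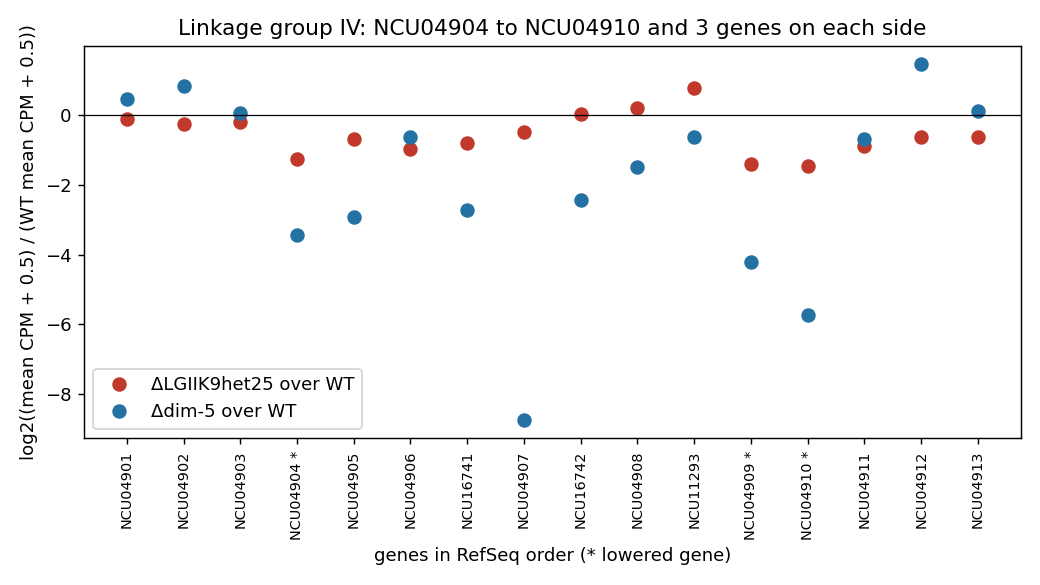
Mean level of 16 consecutive counted genes of LG IV around NCU04904 to NCU04910, in gene order, in ΔLGIIK9het25 and Δdim-5 relative to WT. Each point is log2 of the mean CPM of a mutant plus 0.5 over the WT mean plus 0.5. Inside the run the Δdim-5 points lie below the ΔLGIIK9het25 points for most genes, and lowest for NCU04907. For NCU04904, NCU04909 and NCU04910 both mutants lie below WT, with Δdim-5 the lower.

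In the RefSeq annotation 13 of the 55 genes overlap another gene, so part of their counts could have been lost as ambiguous or shared with the partner. Entries counted as ambiguous made up 1.78% to 3.0% of each library. For cdt-1 the overlapping gene NCU10770 had no count in any library. For NCU16719 the overlapping gene NCU09651 averaged 19.8 ± 10.1 CPM in ΔLGIIK9het25, 46.4 ± 12.6 CPM in Δdim-5 and 38.3 ± 16.6 CPM in WT. The part of NCU09651 in the counts of NCU16719 was not tested.

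None of the 55 genes belonged to the lists of known genes examined beside them, which hold only a few genes each. The cellulose list of 3 genes did not include cdt-1 or gh7-2, and no list included fsd-1. Absence from the lists therefore does not show that these functions are absent from the 55 genes. In ΔLGIIK9het25 against WT, edgeR called none of the 34 genes on 6 lists, namely 7 genes of H3K9 methylation, 8 of conidiation, 7 of the clock and light response, 4 of nitrate and nitrogen use, 5 of quinate use and 3 of cellulose use. At an unadjusted p under 0.05 there were 3, limma-voom called 0, and DESeq2 called 1 higher and 1 lower. In Δdim-5 against WT, edgeR called 3 of the 34 lower, namely the deleted dim-5, the nitrogen regulator nit-2 and the nitrate reductase gene nit-3, and none higher. At an unadjusted p under 0.05 there were 5, limma-voom called 3 lower and none higher, and DESeq2 called 3 lower and 1 higher. In Δdim-5 against ΔLGIIK9het25, edgeR called 3 of the 34 lower and none higher, as did limma-voom and DESeq2, with 5 at an unadjusted p under 0.05. The list medians of the log2 fold change of ΔLGIIK9het25 against WT were 0.02 for H3K9 methylation, 0.26 for conidiation, 0.35 for clock and light, -0.72 for nitrate and nitrogen, 0.31 for quinate and 0.03 for cellulose, against -0.01 over all tested genes. Of Δdim-5 against WT they were -0.14, 1.01, -0.06, -0.64, -0.08 and 0.04 in the same order of lists, against 0.01.

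Markers of other structures varied between libraries. The summed level of 5 markers of conidia, the asexual spores, ran from 165 to 1567 CPM in ΔLGIIK9het25, 468 to 14858 CPM in Δdim-5 and 365 to 2679 CPM in WT. Most of the highest Δdim-5 sum came from eas, at 13764 CPM in Δdim-5 replicate 2, against 221 to 982 CPM in the other Δdim-5 libraries. Of the conidial markers edgeR called none in either mutant against WT, while at an unadjusted p under 0.05 there were 0 in ΔLGIIK9het25 and 1 in Δdim-5. The summed level of 3 markers of sexual structures ran from 162 to 486 CPM in ΔLGIIK9het25, 82.9 to 125 CPM in Δdim-5 and 108 to 230.1 CPM in WT. Of these, the mating type gene matA-1 was called higher in ΔLGIIK9het25, at 14.8, 18.2, 20.8 and 12.8 CPM in ΔLGIIK9het25 libraries, 4.94, 3.52, 3.13 and 10.4 CPM in Δdim-5 and 1.18, 3.07, 6.04 and 1.77 CPM in WT libraries. Of 3 markers of hyphae none was called in either mutant against WT, with 1 at an unadjusted p under 0.05 in ΔLGIIK9het25 and 2 in Δdim-5. In Δdim-5 against ΔLGIIK9het25, edgeR called the hyphal fusion gene so lower (log2 fold change -0.64, adjusted p = 0.0085), and of the sexual markers asd-1 (-1.30, 0.0171) and matA-1 (-1.52, 0.0332), and none of the conidial markers. The part of these structures, or of the reads outside genes, in the levels of the 55 genes was not tested.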

How the data were processed

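The authors deposited whole-number read counts per gene for 12 polyA mRNA libraries, 4 per strain. Per the submitters' processing notes, HISAT2, HTSeq and DESeq2 were used; their versions, the build and the gene models were not given in the sources used here. Replicate numbers are those of the sample titles, and the file names give other numbers. The deposited file names state that strand was ignored in counting, although the labels name a directional kit. Entries outside genes did not enter the totals; reads outside genes made up 3.62% to 36.8% of a library, ambiguous reads 1.78% to 3.0% and unaligned reads 6.25% to 19.6%.

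CPM, counts per 1000000, used the sum over the 9730 genes of a library and does not correct for gene length. Strains are compared within a gene. Orders, classes and sums of CPM over several genes also depend on gene length. All 55 genes passed edgeR's filter on low counts. One edgeR 4.0.16 quasi-likelihood fit (R 4.3.3, limma 3.58.1) with TMM scaling and 1 mean per strain covered all 12 libraries and 8496 genes, with Benjamini-Hochberg adjustment over all of them and calls at an adjusted p under 0.05. The fit was tested on simulated data. The alternatives were RLE or library-total scaling, DESeq2 1.42.0, limma-voom, other filters, a stricter threshold, fits of 2 strains alone, the replicate number as a block and each library left out in turn.

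The genes described singly were those with the 10 lowest ratios, the 10 highest WT means, a gene symbol, the largest called changes in Δdim-5 (up to 5 in each direction), a chosen gene next door, or a ratio next to the bound; other genes were named after their values were seen, to complete a count. The 55 genes and all lists were chosen with earlier results of these data known. Of the 9730 genes, 9729 were found in the RefSeq annotation NC12, used for symbols, gene order and overlaps between genes alone. Product classes, protein features and promoter motifs, which had been planned, were not analysed here. Intervals from read counts are not given; low counts limit the genes of a few CPM.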

Additional observations from a re-analysis of the deposited data

Results flagged for a closer look

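In 78 groups of 4 libraries, 2 held a library set apart from the other 3 by a gap that took up most of the range (Dixon's criterion). In groups not chosen by their values, chance alone flags about 1 in 20, or 3.9 of 78. The choice of the genes used the ΔLGIIK9het25 and WT values, so that rate need not hold for these groups. Both flagged groups are of these strains, and nothing is read from the count. NCU04910 had 171 CPM in ΔLGIIK9het25 replicate 2, against 81.0 to 89.4 CPM in the other ΔLGIIK9het25 libraries. This library also had 31.8% of its reads outside genes, and the part of that in the level was not tested. The cellodextrin transporter gene cdt-1 had 37.7 CPM in WT replicate 3, against 14.7 to 15.5 CPM in the other WT libraries.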

How the results depend on the processing

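The number of genes that met the choice was 62 with TMM and 60 with RLE scaling, 56 with medians, 65 with a WT minimum of 1 CPM and 45 with 5 CPM, and it ranged from 57 to 156 with 1 library left out. It was 254 with both replicate 2 libraries left out. In Δdim-5 against WT, the 3 higher calls became 5 with limma-voom, 5 in the fit of 2 strains, 5 with both replicate 2 libraries left out and 1 at an adjusted p under 0.01, and ranged from 2 to 5 with 1 library left out. The 14 lower calls became 7 at the stricter threshold and ranged from 9 (without Δdim-5 or WT replicate 4) to 15. Against ΔLGIIK9het25, 22 to 29 genes were higher and 4 lower in Δdim-5 with 1 library left out. In ΔLGIIK9het25 against WT, the 44 lower calls became 16 at the stricter threshold and ranged from 22 (without ΔLGIIK9het25 replicate 3) to 46, with 24 without ΔLGIIK9het25 replicate 4, 28 without WT replicate 3 and 26 without WT replicate 4. The choice used the ΔLGIIK9het25 and WT libraries, so nothing is read from these counts of genes lower in ΔLGIIK9het25. The same holds for the counts of genes higher in Δdim-5 than in ΔLGIIK9het25. The cause of the changes between settings was not tested.

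The log2 fold change of NCU09648 in Δdim-5 against ΔLGIIK9het25 turned to -0.021 with library totals and ranged from -0.28 to 0.22 with 1 library left out. It was -0.05 and -0.15 without ΔLGIIK9het25 replicates 1 and 2, -0.28 without Δdim-5 replicate 3 and -0.15 with both replicate 2 libraries left out. That of NCU03383 in Δdim-5 against WT ranged from -0.37 to 0.070 with 1 library left out, the only positive value being the one without WT replicate 4. Over the named genes and alternatives, 522 of the values in Δdim-5 against WT stayed on their side of the threshold, 42 lost and 3 gained a call; in Δdim-5 against ΔLGIIK9het25 these were 518, 41 and 3. With the replicate number as a block, 12 genes were lower and 3 higher in Δdim-5 than in WT, 29 higher and 4 lower than in ΔLGIIK9het25, and 42 lower in ΔLGIIK9het25 than in WT. Nothing is read from the 29 or the 42, which the choice of the genes favours. Against WT the block left gh7-2 (edgeR adjusted p = 0.0505), NCU00948 (0.0535), NCU09728 (0.0517) and NCU08982 (0.066) uncalled, while NCU08199 (0.0476) became higher and NCU04291 (0.0226) lower. Correlations of same-numbered libraries ran from -0.19 to 0.41 between ΔLGIIK9het25 and WT. In only 6 of 24 pairings of a library with another strain was the best correlation with its own number. Reads outside genes followed 1 order of replicates in WT (18.5%, 36.8%, 13.4% and 8.85%) and ΔLGIIK9het25 (13.3%, 31.8%, 6.05% and 5.17%). In Δdim-5 the order differed (7.29%, 6.41%, 4.76% and 3.62%). Whether same-numbered libraries shared a batch was not tested. The replicate numbers are the titles' numbers, and the deposited file names number the same libraries differently. The block, these correlations and these orders therefore hold for the titles' numbers alone.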
